A study of Homo sapiens with 6 samples.

Results

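The SLITRK family was followed through total RNA sequencing of a neuroblastoma cell line. All 6 members, *SLITRK1* to *SLITRK6*, were taken from the deposited tables by gene symbol, that is 6 of 60651 annotated genes, and all 6 passed the filter on low counts. The family was put forward because *SLITRK5* was lower in the libraries labelled Tet, that is, it was selected on its log2 fold change between these same libraries, so the values of *SLITRK5* in that contrast are given as a description, with no test. The other 5 genes belong to the family by name.

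SLITRK proteins are transmembrane adhesion molecules of neurons. Their outer part carries leucine-rich repeats like those of the axon guidance protein SLIT, and the inner tail of most members resembles that of the neurotrophin receptors (NTRK), which gave the family its name. On the receiving side of a synapse they bind LAR-type receptor phosphatases of the transmitting axon, and this contact promotes the formation of synapses. Neuroblastoma arises from the sympathetic lineage of the neural crest, so its cells carry part of a neuronal expression program.

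There were 3 libraries titled EtOH, the ethanol vehicle, and 3 titled Tet, tetracycline, with 5 days of treatment per the labels. The titles name IMR-5/75, a *MYCN*-amplified line, and a tag calls the groups control and induction of a knockdown, whereas the protocol text speaks of SK-N-SH cells that carry a tetracycline-inducible *MYCN* transgene under a tetracycline repressor and were kept as single clones. The study itself describes an expression model in SK-N-AS cells and, in IMR-5/75, an inducible shRNA against *MYCN*, so the model behind these libraries cannot be told from the labels. Libraries are therefore called by their titles, EtOH or Tet, replicates 1 to 3, in which order the values of 3 libraries are listed throughout, and which way tetracycline was meant to move *MYCN* in them is not settled here. Both the labels and the methods state that the change in MYCN was checked by Western blot, without values for these libraries. The labels number the replicates without naming separate cultures. The methods speak of independent biological replicates for experiments in culture in general, without naming these libraries, and if they were not separate, p-values measure only the technical spread between these libraries.

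*MYCN*, the gene that either system would act on, gives the check of the labels. Its level was 158, 256 and 156 CPM (counts per library, brought to one total) across the EtOH libraries and 197, 200.1 and 145 CPM across the Tet libraries. The groups overlapped, and the log2 fold change of Tet against EtOH was -0.07 (with SE 0.23 and an edgeR adjusted p = 0.956). The directions below compare labels, not a known rise or fall of *MYCN*.

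Library totals ran from 27933378 to 40498065 counts, and 3 counts corresponded to 0.0741 to 0.107 CPM. EtOH replicate 2 stood apart: on the first principal component of log2 CPM, which held 44.7% of the variance, it had a score of 84.2, next to Tet replicate 2 at 47.3, while the other 4 libraries lay between -55.0 and -1.81. The share of mitochondrial counts ranged from 4.12% to 10.01% and was lowest in EtOH replicate 2. Of 13 fixed noradrenergic neuroblast markers, *GATA3* and *ELAVL4* were well expressed in every library, *TH* was at 0 in 5 of 6 libraries, and *DBH* and *STMN2* averaged under 1 CPM under both labels. Endothelial, leukocyte and Schwann or glial marker lists were at or near 0, with summed levels of at most 4.18 CPM.

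The SLITRK genes lie on 3 chromosomes. *SLITRK1*, *SLITRK6* and *SLITRK5* share a stretch of the long arm of chromosome 13, *SLITRK4* and *SLITRK2* lie on X, and *SLITRK3* on chromosome 3 (GRCh38 throughout). In each of the 6 genes, GENCODE version 44 places the whole coding sequence in 1 exon, from 2088 coding bases in *SLITRK1* to 2931 in *SLITRK3*. The annotated transcripts of different members shared 0 stretches of 50 identical bases, over all 15 pairs of genes. No more than 4.23% of the exon bases of a member (*SLITRK1*) lay inside another gene, and the figure was 1.45% for *SLITRK2* and 0 for the rest.

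The sequences just upstream of the start sites of *SLITRK5* and *SLITRK4* are shown because these genes were lower in the same libraries, and that of *SLITRK6* because it was higher there. Each is the 250 bases before a RefSeq start site (GRCh38.p14), read along the gene: chr13:87672339-87672588, plus strand, for *SLITRK5*; chrX:143636102-143636351, minus strand, for *SLITRK4*; and chr13:85799420-85799669, minus strand, for *SLITRK6*. Capitals mark every CANNTG, the E-box core to which MYC proteins and other helix-loop-helix factors bind and which includes CACGTG, and every GGGCGG or its complement CCGCCC, the GC box.

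SLITRK5: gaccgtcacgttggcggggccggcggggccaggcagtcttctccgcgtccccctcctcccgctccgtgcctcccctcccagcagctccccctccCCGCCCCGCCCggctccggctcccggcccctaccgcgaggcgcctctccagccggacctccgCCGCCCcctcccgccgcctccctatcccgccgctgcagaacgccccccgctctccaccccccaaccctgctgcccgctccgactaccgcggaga

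SLITRK4: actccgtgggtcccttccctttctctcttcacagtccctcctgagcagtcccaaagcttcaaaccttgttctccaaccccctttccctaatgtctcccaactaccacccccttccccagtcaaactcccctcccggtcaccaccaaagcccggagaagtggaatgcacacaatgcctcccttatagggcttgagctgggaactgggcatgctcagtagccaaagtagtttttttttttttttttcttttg

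SLITRK6: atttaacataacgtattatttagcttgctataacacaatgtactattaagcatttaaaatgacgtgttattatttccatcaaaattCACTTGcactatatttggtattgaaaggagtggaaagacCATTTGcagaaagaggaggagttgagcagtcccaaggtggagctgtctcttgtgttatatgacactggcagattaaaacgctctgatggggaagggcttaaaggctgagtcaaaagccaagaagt

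The *SLITRK5* window was rich in G and C, at 78.4%, above 94.8% of the 35116 RefSeq windows of this length, and it held 30 CG dinucleotides and 3 GC boxes, of which 2 overlap. GGGCGG or CCGCCC was present in 42.6% of all windows and CANNTG in 61.8%. The *SLITRK4* window held neither motif, at 51.2% G and C with 3 CG dinucleotides. The *SLITRK6* window was among the poorest in G and C, at 37.6%, and held 2 CANNTG matches. CACGTG, found in 6.34% of all windows, and TATAAA or its complement, found in 10.7%, occurred in none of the 3 windows. For *SLITRK5* and *SLITRK4*, RefSeq lists 3 windows each, and these values cover only the window shown. The *SLITRK6* window lies 7264 bases inside the gene model used for counting, whose first exon starts further upstream, while the *SLITRK4* window borders the model and the start for *SLITRK5* lies 26 bases from it.

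*SLITRK5* (ENSG00000165300.7, chromosome 13, 87672615 to 87696272, plus strand) encodes a member that binds LAR-type phosphatases at excitatory synapses and also associates with the neurotrophin receptor TrkB. It was at 24.7, 24.4 and 28.3 CPM across the EtOH libraries and at 6.88, 6.40 and 8.41 CPM across the Tet libraries. Every Tet library was below every EtOH library, and the counts behind these values were 885.5, 677 and 857 against 194, 227 and 334. The means were 25.8 ± 2.18 CPM for EtOH and 7.23 ± 1.05 CPM for Tet (SD, n = 3 each), a 3.57-fold lower level in Tet (log2 fold change -1.84, SE 0.19). The gene was chosen by its value in this contrast. Leaving out any 1 library left the log2 fold change between -1.95 and -1.75. In bulk RNA, fewer cells that express a gene and less RNA per cell cannot be told apart.

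*SLITRK4* (ENSG00000179542.16, chromosome X, 143622790 to 143636101, minus strand), a relative that likewise acts at excitatory synapses, was the only one of the 5 tested members past the threshold of an adjusted p of 0.05 in the fit to all 6 libraries. Its level was 15.5, 13.1 and 14.8 CPM across the EtOH libraries and 4.25, 3.89 and 5.18 CPM across the Tet libraries. The groups were far apart relative to their spread, with means of 14.5 ± 1.23 and 4.44 ± 0.666 CPM (SD, n = 3 each). *SLITRK4* fell by 1.70 on the log2 scale, or 3.26-fold (with SE 0.21 and an edgeR adjusted p = 0.0307). The call was lost when any 1 library other than EtOH replicate 2 was left out. The adjusted p was 0.133 without EtOH replicate 1, 0.206 without EtOH replicate 3, 0.218 without Tet replicate 1, 0.157 without Tet replicate 2 and 0.106 without Tet replicate 3, while it was 0.00661 without EtOH replicate 2; the log2 fold change stayed between -1.83 and -1.61. Over all 22443 genes tested, 53 passed the threshold (0.236%), 20 lower (0.0891%) and 33 higher (0.147%) in Tet, against 1 of the 5 SLITRK genes other than *SLITRK5*. Where the call was lost, hardly any gene passed. Of all genes, 2 of 22874 passed without EtOH replicate 1 and 1 of 23701 without EtOH replicate 3. Without Tet replicates 1, 2 and 3 in turn, 0 of 23916, 1 of 23260 and 0 of 22944 passed. Without EtOH replicate 2, 692 of 23935 (2.89%) passed.

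*SLITRK4* and *SLITRK5* kept nearly the same proportion in every library. The ratio of *SLITRK4* to *SLITRK5* counts was 0.628, 0.538 and 0.524 across the EtOH libraries and 0.619, 0.608 and 0.617 across the Tet libraries. The labels overlapped in this ratio. The genes lie on different chromosomes.

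**Figure D1:**
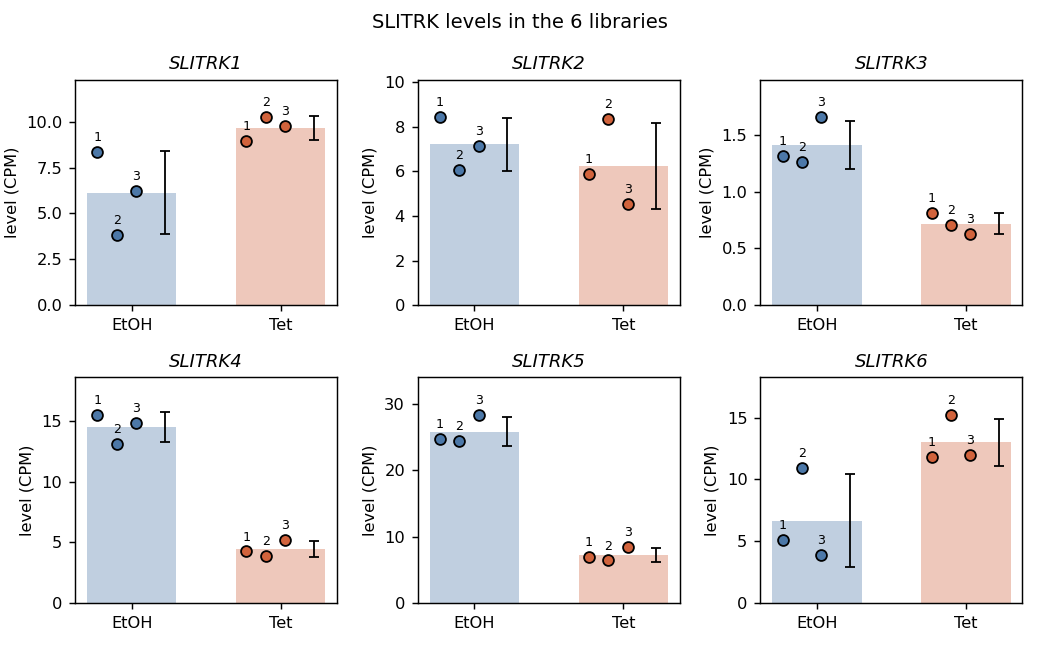
Level of each SLITRK gene in CPM (vertical axes, which differ in scale and start at 0) in the libraries titled EtOH (blue) and Tet (orange). Points are single libraries with their replicate number, bars are means of 3 libraries and black lines are ± 1 SD. *SLITRK5* and *SLITRK4* have Tet values well below all EtOH values, whereas *SLITRK6* and *SLITRK1* are higher in all Tet libraries, with EtOH replicate 2 nearest to them for *SLITRK6* and furthest for *SLITRK1*.

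The remaining 4 of the 5 tested members did not pass the threshold. *SLITRK3* (ENSG00000121871.4, chromosome 3, 165186720 to 165197109, minus strand), the member known for organising inhibitory synapses through the phosphatase encoded by *PTPRD*, was the least abundant. It was at 1.31, 1.26 and 1.65 CPM across the EtOH libraries and at 0.815, 0.705 and 0.629 CPM across the Tet libraries. These values rest on 23 to 50 counts a library. All Tet values were below all EtOH values, with a log2 fold change of -0.98 (with SE 0.35 and an edgeR adjusted p = 0.354).

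*SLITRK2* (ENSG00000185985.11, chromosome X, 145817829 to 145829856, plus strand), the neighbour of *SLITRK4* and a gene of X-linked intellectual disability, overlapped between the labels. Its level was 8.43, 6.06 and 7.14 CPM across the EtOH libraries against 5.88, 8.35 and 4.53 CPM across the Tet libraries. The log2 fold change was -0.21 (with SE 0.28 and an edgeR adjusted p = 0.868), with an approximate 95% interval of -0.75 to 0.34. That interval does not reach the fold of *SLITRK4* beside it.

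*SLITRK6* (ENSG00000184564.11, chromosome 13, 85792790 to 85806683, minus strand), which is needed for hearing and eye development, was the member highest in Tet. It was at 5.08, 10.9 and 3.90 CPM across the EtOH libraries and at 11.8, 15.2 and 12.0 CPM across the Tet libraries. EtOH replicate 2 lay close to the Tet libraries, although the groups did not overlap. The log2 fold change was 0.97 (with SE 0.37 and an edgeR adjusted p = 0.390). Without EtOH replicate 2 it was 1.54 (edgeR adjusted p = 0.0149), in a fit in which 692 of 23935 genes (2.89%) passed; over all alternatives the adjusted p ranged from 0.0149 to 0.852.

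*SLITRK1* (ENSG00000178235.8, chromosome 13, 83877205 to 83882474, minus strand), studied for its part in Tourette syndrome and neurite growth, had 8.37, 3.82 and 6.22 CPM across the EtOH libraries and 8.93, 10.2 and 9.79 CPM across the Tet libraries. Tet libraries were again all above EtOH libraries, and EtOH replicate 2 was the lowest of all. The log2 fold change of 0.65 (with SE 0.29 and an edgeR adjusted p = 0.477) did not pass the threshold, and it was 0.41 without EtOH replicate 2.

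Among the 5 genes other than *SLITRK5*, 4 had labels that did not overlap, against 17.5% of all genes tested, and 3 had an unadjusted p under 0.05, against 10.8%. They were divided in direction: *SLITRK4* and *SLITRK3* were lower in Tet, *SLITRK6* and *SLITRK1* higher. Noradrenergic markers moved with the labels as well. Their summed level was 973 to 1113 CPM in EtOH and 1335 to 1478 CPM in Tet libraries, with 0 of the 10 tested past the threshold (edgeR; 7 at an unadjusted p under 0.05, 3 past it in DESeq2, 0 in limma-voom), while the 10 mesenchymal markers summed to 296 to 523 and 266 to 386 CPM, with *PRRX2* and *TWIST2* at 0. The 6 fibroblast markers summed to 14.0 to 19.4 CPM in EtOH and 22.0 to 25.0 CPM in Tet libraries, with *COL1A2* at 0 and 0 of the 4 tested past the threshold (edgeR; 1 at an unadjusted p under 0.05, 1 past it in DESeq2, 0 in limma-voom). The higher sum came from *COL3A1*, at 8.82 ± 2.41 and 18.0 ± 2.10 CPM, while the other 3 tested had log2 fold changes below 0. Of all genes, 485 of 23987 passed in DESeq2 and 58 of 22443 in limma-voom. The part of the marker differences in the SLITRK values was not tested.

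**Figure D2:**
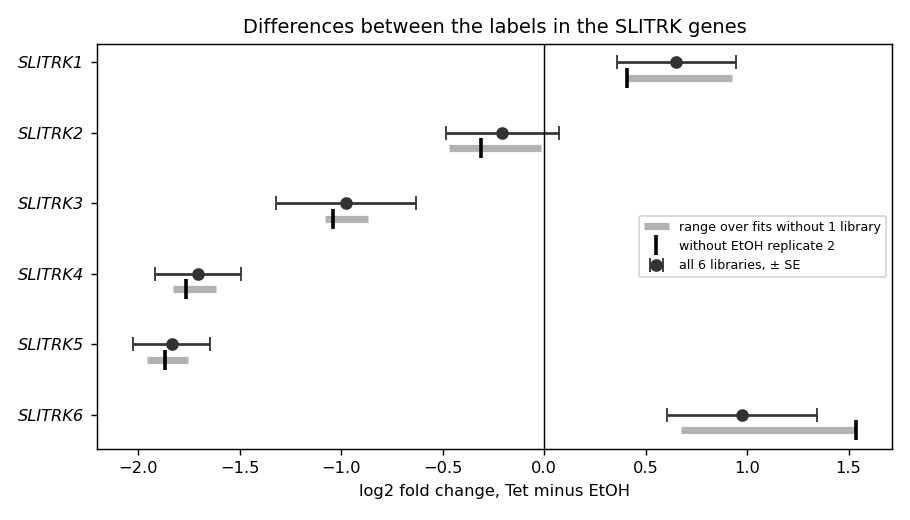
Log2 fold change of each SLITRK gene, Tet minus EtOH (horizontal axis), with the fit to all 6 libraries as a point ± SE, the range over the 6 fits that leave out 1 library as a grey bar, and the fit without EtOH replicate 2 as a black tick. *SLITRK5* and *SLITRK4* stay between -1.95 and -1.61, and *SLITRK6* moves most, from 0.97 to 1.54 without EtOH replicate 2.

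Per length, the order of the members differed between the labels. In TPM (counts per exon base, scaled to a common total), EtOH libraries had *SLITRK4* first at 4.37 ± 0.165, then *SLITRK6* at 4.27 ± 2.66, *SLITRK5* at 3.41 ± 0.247, *SLITRK1* at 3.22 ± 1.07, *SLITRK2* at 1.68 ± 0.210 and *SLITRK3* at 0.743 ± 0.0962 TPM (SD, n = 3 each). Neighbours among the first 4 overlapped between libraries, so the order of neighbours there is not resolved. *SLITRK4*, at 4.20 to 4.53 TPM, did lie above *SLITRK5*, at 3.16 to 3.65 TPM, with no overlap. *SLITRK1*, *SLITRK2* and *SLITRK3* did not overlap with the next in line. In Tet libraries *SLITRK6* came first at 7.84 ± 1.41 TPM and *SLITRK1* second at 4.87 ± 0.386 TPM, with no overlap. *SLITRK2* at 1.41 ± 0.492, *SLITRK4* at 1.27 ± 0.113 and *SLITRK5* at 0.905 ± 0.0736 TPM followed, of which *SLITRK2* overlapped both others, and *SLITRK3* was last at 0.364 ± 0.0725 TPM.

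The place of *SLITRK5* in this order depended on its annotated length. The gene model behind the counts has 21103 exon bases, most of them in a long last exon, while the canonical transcript has 5075. With canonical lengths, an alternative chosen after seeing the data, *SLITRK5* was first of the 6 in EtOH libraries at 5.09 CPM per kilobase, ahead of *SLITRK4* at 1.66, rather than at rank 3. In Tet libraries it was at 1.42 CPM per kilobase, below *SLITRK6* at 3.06 and *SLITRK1* at 2.00. The fold change of a single gene between labels does not depend on its length, whereas sums and shares over several genes do.

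Whether the sum over the family separated the labels depended on the scale. All 6 genes together had 17.7 ± 1.58 TPM in EtOH and 16.7 ± 2.12 TPM in Tet libraries (SD, n = 3 each), and the groups overlapped. In CPM, where length plays no part and *SLITRK5* weighs more, they summed to 63.4, 59.6 and 62.1 across the EtOH libraries and to 38.6, 44.8 and 40.5 across the Tet libraries, with no overlap. The log2 difference of the sums was -0.09 in TPM and -0.58 in CPM, an alternative added after seeing the data, and both are given with no test because *SLITRK5* is part of them. Without *SLITRK5*, the other 5 summed to 14.5, 15.9 and 12.5 TPM across the EtOH libraries and to 15.5, 18.1 and 13.7 TPM across the Tet libraries, and the groups overlapped. The difference of the log2 sums was 0.14 (exact two-sided permutation test, p = 0.5, where 0.1 is the smallest p that 3 against 3 libraries allow). With CPM in place of TPM its sign turned, to -0.08.

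The make-up of the sum was different. *SLITRK5* took 19.4% ± 2.80 of the family's TPM in EtOH and 5.53% ± 1.12 in Tet libraries, and *SLITRK4* 24.8% ± 2.76 and 7.77% ± 1.63 (SD, n = 3 each). *SLITRK6* took 23.5% ± 12.6 in EtOH, with 37.9% in replicate 2 against 17.6% and 14.9% in the others, and 46.9% ± 2.41 in Tet. *SLITRK1* took 18.5% ± 6.71 and 29.3% ± 1.44.

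**Figure D3:**
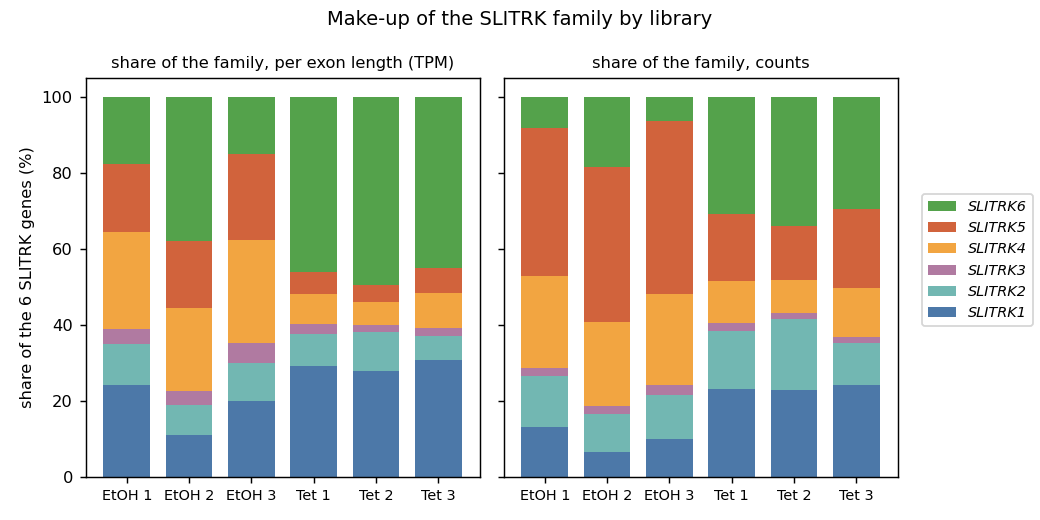
Share of each SLITRK gene in the family's total (vertical axis, percent) in each library, by TPM in the left panel and by counts in the right panel. *SLITRK6* takes 44.9% to 49.6% of the TPM in Tet libraries and 14.9% to 37.9% in EtOH libraries, and *SLITRK5* takes 38.9% to 45.6% of the counts in EtOH libraries against 14.3% to 20.8% in Tet libraries.

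The stretch of chromosome 13 around *SLITRK5* was examined for a shared direction. Within 10 Mb of its start, 193 genes other than SLITRK members are annotated, of which 92 had no count in any library and 46 could be tested. Their log2 fold changes were divided evenly, 23 below 0 and 23 above, with a median of 0.01, against -0.01 over all genes tested. Of the 46, 1 gene passed the threshold, against 0.236% of all genes tested. An unadjusted p under 0.05 (edgeR) was found in 6 of the 46, against 10.8%. *LINC00456* (ENSG00000233124.2, 97168751 to 97187578, minus strand), a long non-coding RNA 9.50 Mb away, was at 0.251, 0.144 and 0.132 CPM across the EtOH libraries and at 2.13, 1.69 and 1.66 CPM across the Tet libraries. It rose, in the direction opposite to *SLITRK5* (log2 fold change 3.33 with SE 0.43 and edgeR adjusted p = 0.0345). Its adjusted p was 0.133 without EtOH replicate 1, 0.229 without EtOH replicate 3, 0.218 without Tet replicate 1, 0.147 without Tet replicate 2 and 0.131 without Tet replicate 3. In each of these fits only 0 to 2 of all genes tested passed. *MBNL2* and *POU4F1*, named after their values were seen, also passed in DESeq2 and without EtOH replicate 2. Of all genes, 485 of 23987 and 692 of 23935 (2.89%) passed in those fits. In the fit to all 6 libraries the log2 fold changes of *MBNL2* and *POU4F1* were 1.07 (edgeR adjusted p = 0.0584) and -1.25 (edgeR adjusted p = 0.158).

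The nearest tested genes on either side were lower in Tet without passing. *MIR4500HG* (ENSG00000228824.7, 87427214 to 87674235, minus strand), the host transcript of a microRNA, is antisense to *SLITRK5* and reaches past its start, although exons of the 2 genes do not overlap. It was near the detection level, at 0.391, 0.397 and 0.793 CPM across the EtOH libraries and at 0.354, 0 and 0.176 CPM across the Tet libraries (log2 fold change -1.60 with SE 0.88 and edgeR adjusted p = 0.579). *MIR17HG* (ENSG00000215417.13, 91347820 to 91354579, plus strand), 3.68 Mb on the other side, hosts the miR-17-92 cluster, which MYC proteins are known to activate. It was at 25.6, 63.5 and 28.0 CPM across the EtOH libraries and at 23.0, 26.9 and 19.2 CPM across the Tet libraries. The groups overlapped, and the log2 fold change of -0.76 (with SE 0.34 and an edgeR adjusted p = 0.478) was -0.21 without EtOH replicate 2, the library with the highest value.

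*SLITRK6* and *SLITRK1*, at 1.88 and 3.80 Mb on the proximal side, had log2 fold changes of the opposite sign to that of *SLITRK5*. Within 5 Mb 3 genes other than the SLITRK genes were tested and 0 passed (edgeR; 0 at an unadjusted p under 0.05, 0 in DESeq2 and limma-voom). Within 20 Mb 129 were tested and 1 passed (edgeR), with a median log2 fold change of -0.07. In that window 16 had an unadjusted p under 0.05 (edgeR), and 6 passed in DESeq2, 1 in limma-voom and 5 without EtOH replicate 2. Around *SLITRK4* on X, 0 of 82 tested genes within 10 Mb passed (edgeR), with 2 in DESeq2 and 0 in limma-voom. An unadjusted p under 0.05 was found in 8 (edgeR), against 10.8% of all genes tested, and 40 lay below 0 and 42 above. Around *SLITRK3* on chromosome 3, 0 of 116 passed (edgeR), with 2 in DESeq2 and 0 in limma-voom. There 17 had an unadjusted p under 0.05 (edgeR). More of them lay below 0, the side of *SLITRK3*, than above, 79 of the 116 against 37, with a median of -0.18. Of all genes, 485 of 23987 passed in DESeq2, 58 of 22443 in limma-voom and 692 of 23935 (2.89%) without EtOH replicate 2.

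**Figure D4:**
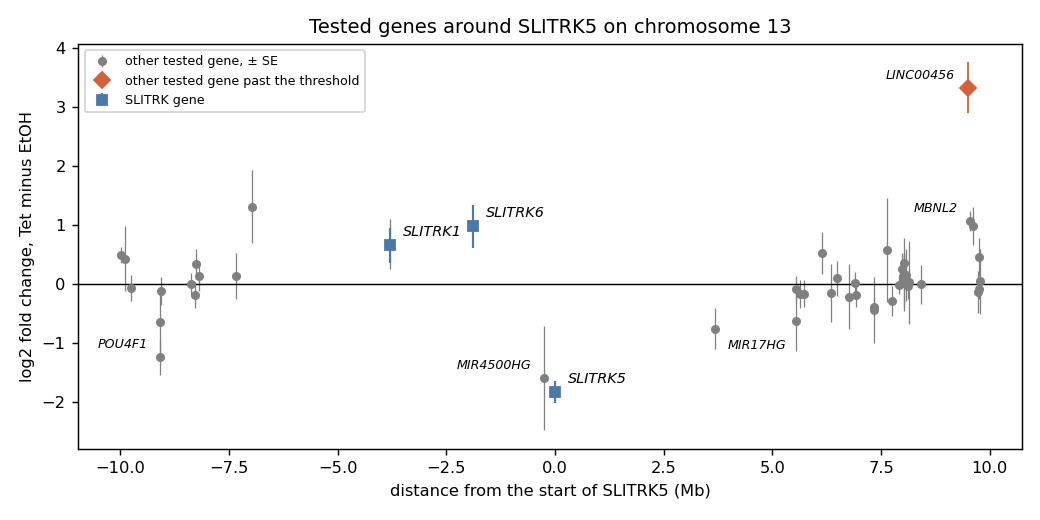
Log2 fold change, Tet minus EtOH (vertical axis), of tested genes against their distance from the start of *SLITRK5* in Mb (horizontal axis). Blue squares are SLITRK genes, grey points other tested genes and the orange diamond *LINC00456*, the one other gene past the threshold; lines are ± SE. Of the 46 other genes 23 lie below 0 and 23 above, and *SLITRK1* and *SLITRK6* lie above 0 while *SLITRK5* lies at -1.84.

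The partners of the family were then followed in 7 lists by role, 81 genes of which 60 could be tested. None of the 60 passed the threshold (edgeR), and 18 had an unadjusted p under 0.05, against 10.8% of all genes tested. Their median log2 fold change was 0.09, with 27 below 0 and 33 above. By other tools and settings the count was 9 in DESeq2, where 485 of all 23987 genes passed. It was 1 in limma-voom, where 58 of 22443 passed, and 9 without EtOH replicate 2, where 692 of 23935 (2.89%) passed. The nearest genes of each list are therefore given with their values.

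The receptors of SLITRK proteins were abundant under both labels. LAR-type phosphatases and the liprins that anchor them had 8 of 9 genes tested, from -0.67 to 0.61 with a median of 0.06. *PTPRD* was at 85.8 ± 7.90 and 77.9 ± 10.6 CPM in EtOH and Tet libraries, *PTPRS* at 11.5 ± 0.842 and 17.6 ± 8.73 CPM, and *PTPRF* at 22.4 ± 6.39 and 29.8 ± 10.8 CPM (SD, n = 3 each). The high Tet mean of *PTPRS* came from replicate 3, at 27.7 CPM against 12.5 and 12.6 CPM, and its log2 fold change of 0.61 had an adjusted p of 0.555 (edgeR). *PPFIBP1*, a liprin, was the most abundant gene of the list at 97.9 ± 9.46 and 98.2 ± 8.74 CPM, and *PPFIA2*, another liprin, was at 14.6 ± 5.29 and 9.21 ± 1.85 CPM (log2 fold change -0.67, edgeR adjusted p = 0.493).

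Among the other ligands that compete for these phosphatases, 6 of 11 were tested, with a median log2 fold change of -0.32. *GPC4*, a heparan sulfate proteoglycan that binds the receptor encoded by *PTPRS*, came close to the threshold. It was at 7.67, 7.61 and 8.56 CPM across the EtOH libraries and at 2.69, 2.71 and 3.35 CPM across the Tet libraries (log2 fold change -1.44 with SE 0.23 and edgeR adjusted p = 0.0574). *NTRK3*, which codes for the receptor TrkC and binds the same phosphatase, was at 0.586, 0.649 and 0.430 CPM in EtOH and at 1.77, 2.28 and 2.16 CPM in Tet libraries (log2 fold change 1.90 with SE 0.35 and edgeR adjusted p = 0.0812). Both separated the labels with no overlap, in opposite directions. *SDC2*, a syndecan and the most abundant of the list, was at 57.2 ± 10.4 and 62.9 ± 15.5 CPM.

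Of neurexins, neuroligins and their partners, the other main adhesion system of synapses, 12 of 17 were tested, with a median log2 fold change of 0.35. *NLGN4X*, a neuroligin and the most abundant gene of the list, was at 40.4 ± 8.92 and 70.7 ± 24.8 CPM (0.81 on the log2 scale, edgeR adjusted p = 0.308), and *CBLN2*, a secreted linker of neurexins, at 2.29 ± 0.795 and 1.18 ± 0.177 CPM (-0.96, edgeR adjusted p = 0.375).

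Latrophilins, teneurins and FLRT proteins, a further adhesion system, were all tested, 10 of 10, with a median of -0.08. *ADGRL2*, a latrophilin, was the most abundant of all partner genes at 327 ± 12.6 and 279 ± 24.7 CPM (log2 fold change -0.23, edgeR adjusted p = 0.623). The leucine-rich repeat proteins *FLRT2* and *FLRT3* differed in sign. *FLRT2* was at 44.6 ± 1.99 and 25.7 ± 1.80 CPM (-0.79 with SE 0.15 and edgeR adjusted p = 0.0818), and *FLRT3* at 55.8 ± 9.16 and 92.8 ± 11.5 CPM (0.74 with SE 0.18 and edgeR adjusted p = 0.167).

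Netrin-G, SLIT, ROBO and further leucine-rich repeat proteins had 12 of 16 genes tested, 9 of them above 0, with a median of 0.67. *LRRC4C*, the ligand of netrin-G1, was at 1.26, 0.433 and 1.79 CPM across the EtOH libraries and at 6.56, 3.55 and 4.96 CPM across the Tet libraries (log2 fold change 2.11 with SE 0.48 and edgeR adjusted p = 0.144). *NTNG1*, which codes for netrin-G1 itself and is named after its values were seen, was at 6.03 ± 2.29 and 20.6 ± 2.62 CPM (1.78 with SE 0.28 and edgeR adjusted p = 0.0587). *ROBO1*, the receptor of SLIT proteins and the most abundant of the list, was at 194 ± 34.3 and 188 ± 51.4 CPM, and *LGI2* was at 2.91 ± 1.16 and 1.71 ± 0.625 CPM.

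Trk receptors and their ligands had 4 of 6 genes tested. *NTRK2*, which codes for TrkB, the receptor that SLITRK5 associates with, is named after its values were seen. It was at 1.14, 0.938 and 1.29 CPM across the EtOH libraries and at 0.106, 0.310 and 0.554 CPM across the Tet libraries, with a log2 fold change of -1.75 (with SE 0.55 and an edgeR adjusted p = 0.287). *BDNF*, the ligand of TrkB, was at 25.8 ± 3.39 and 27.4 ± 3.36 CPM. Of the postsynaptic scaffolds 8 of 12 were tested, with a median of -0.15: *SHANK2* was at 13.1 ± 0.552 and 24.4 ± 4.84 CPM (0.89 with SE 0.19 and edgeR adjusted p = 0.128), *HOMER2* at 17.0 ± 3.27 and 13.02 ± 1.76 CPM, and *DLG1* at 241 ± 43.98 and 248 ± 22.0 CPM.

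**Figure D5:**
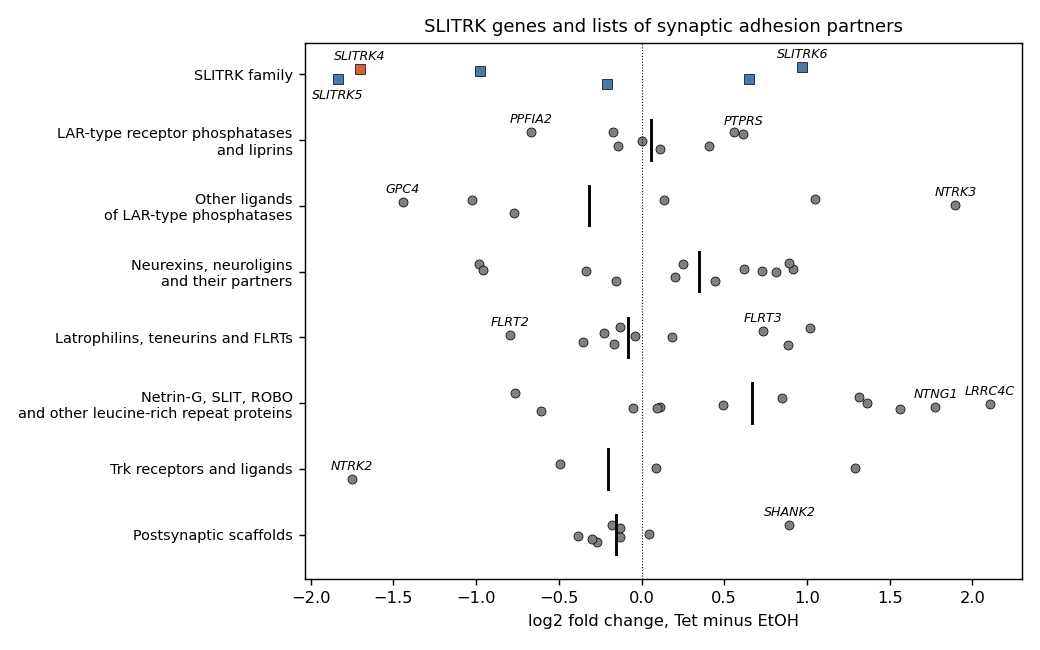
Log2 fold change, Tet minus EtOH (horizontal axis), of every tested gene of the SLITRK family (squares) and of 7 lists of synaptic adhesion partners (circles), with 1 row per list and the list median as a black line. Orange marks an adjusted p under 0.05, which *SLITRK4* alone reached; *SLITRK5* was not tested. Points are spread vertically only to be seen.

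Genes whose pattern was most like that of *SLITRK5* were ranked by Pearson's r of log2 CPM over the 6 libraries, among 10088 genes with a mean of at least 5 CPM. The libraries share their label, so any gene that differs strongly between labels has an r near 1 or -1, and the values are a description. The first 5 were *GPC4* (r = 0.999), the prostate-associated non-coding RNA *PART1* (0.998), *FLRT2* (0.997), *ZC3H11B* (0.996) and *SLITRK4* (0.996), so that *SLITRK4* was at rank 5 of 10088. *PART1* was at 11.1, 10.4 and 12.7 CPM across the EtOH libraries and at 2.41, 1.97 and 3.17 CPM across the Tet libraries. The most opposite were *EBF3* (r = -0.995), *NRG1* (-0.994) and the neural adhesion molecule *NCAM1* (-0.994), the last of which was at 91.5, 95.1 and 90.7 CPM and then 216, 221 and 209 CPM.

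The other members were far from the top of this ranking or outside it. The r with *SLITRK5* was 0.28 for *SLITRK2* (rank 3148), -0.72 for *SLITRK1* (rank 8949) and -0.81 for *SLITRK6* (rank 9352). *SLITRK3*, with r = 0.94, was under the minimum of 5 CPM and has no rank. With a minimum of 20 CPM, 1 of the first 5 genes was the same, since the other 4 average less than 20 CPM.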

How the data were processed

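Each library came with 1 table of deposited estimated counts by gene. Per the file headers, the authors used featureCounts 1.6.4 on uniquely aligned reads over exons, divided read pairs that overlapped several genes among them, and did not use the strand. The labels name STAR 2.7.1a, featureCounts 1.5.1 and GRCh38, and the study's methods describe other options, strand included. Values were not whole for 12.3% to 14.7% of the genes, depending on the library, and reads of antisense or overlapping genes cannot be told apart.

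The design had been written for whole counts, so the estimated counts were rounded. After filterByExpr and TMM scaling, Tet and EtOH libraries were compared in edgeR 4.0.16 (R 4.3.3) with its quasi-likelihood F test and Benjamini-Hochberg adjustment over all genes tested. This step was tested on simulated counts. CPM are TMM-scaled, and TPM use the exon length in the tables. Alternatives were RLE and upper-quartile scaling, no filter or at least 10 counts, DESeq2 1.42.0, limma-voom (limma 3.58.1), leaving out each library, the replicate number as a block, and leaving out mitochondrial genes. Each table also lists 92 spike-in sequences, all at 0, which were left out. Symbols were found for 99.7% of genes. Sequences are from RefSeq, with all 6 members matched.

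Members, lists and tests were chosen with earlier results of these data known. Genes named are the 6 members; *MYCN*; genes within 10 Mb of *SLITRK5* past the threshold and the nearest tested gene on either side; in each partner list, genes past the threshold, the most abundant gene, and the largest rise and fall among genes that averaged 1 CPM or more; and the 5 genes most and 3 least like *SLITRK5*. Further genes were picked with their values in view. Some genes that these rules name are not reported here. Intervals of the log2 fold change are the value ± the normal quantile times SE, where SE is the size of the log2 fold change divided by the square root of F. They are approximate and narrower than the F test implies. By this rule the interval of *SLITRK1*, 0.08 to 1.22, leaves out 0, although its unadjusted p was 0.0544 (edgeR).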

Additional observations from a re-analysis of the deposited data

How the results depend on the processing

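The log2 fold change of *SLITRK5* was between -1.95 and -1.75 in all 14 other fits. Of the 5 other members, 1 passed the threshold in every fit of all 6 libraries except that with the replicate number as a block, where 2 passed; in fits that left out 1 library the count ran from 0 to 2. Whether the numbers pair the libraries is not settled by the labels. Deviations of same-numbered libraries correlated by 0.0603, 0.510 and 0.219, all above 0 and unequal. With the block, *SLITRK6* passed (1.09, edgeR adjusted p = 0.0398), as did 3 genes within 10 Mb of *SLITRK5* and 11 partners. Of all 22443 genes tested, 675 passed. The log2 fold change of *SLITRK5* was -1.84. The sum of the other members kept a difference of 0.14 (exact permutation within numbers, p = 0.25). With 3 numbers, 0.25 is the smallest p that this test allows, and the sum was higher in Tet under each number. The count within 10 Mb was 3 in DESeq2, 2 without a filter, 0 to 3 without 1 library, and 0 in a window of 5 Mb. Partners past the threshold were 9 in DESeq2, 1 in limma-voom, 6 without a filter and 0 to 9 without 1 library. Over all genes, 485 of 23987 passed in DESeq2, 58 of 22443 in limma-voom, 302 of 40467 without a filter and 0 to 692 without 1 library. *SLITRK5* ranked first in place of rank 3 in EtOH libraries by CPM without length, and likewise with canonical transcript length, an alternative chosen after seeing the data (rank 1 in both). The summed level of the other members turned sign with CPM (-0.078). Of the 5 genes most like *SLITRK5*, 0 were shared when ranked by Spearman's rho, where 6 libraries allow many ties, and 1 with at least 20 CPM, a minimum that leaves out the other 4.

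Over 29 named genes and 14 alternatives each (406 values), 356 kept their direction and their side of the threshold, 10 lost the call and 26 gained one. The 14 that turned sign were all small: *MYCN* without EtOH replicate 2 or Tet replicate 3 (0.21 and 0.07, with -0.22 as the lowest value without 1 library), *PPFIBP1* in DESeq2 (-0.00713), with RLE (-0.0108), without a filter (-0.00126) and without 1 library (-0.0659 to 0.0579), *SDC2* without 1 library (-0.00944 to 0.328), *ROBO1* likewise (-0.29 to 0.10) and *DLG1* likewise (-0.0824 to 0.203).

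With 3 libraries a label, 1 of them apart from the rest, a missed threshold does not show that a gene was level. Depth limits *SLITRK3*, *MIR4500HG* and *LINC00456*, which are among the genes named with the fewest counts. In each edgeR fit, also where 1 library was left out, a gene had 1 estimate of spread for both labels.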
